A study of Mus musculus with 6 samples.

Results

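The genes described here are the 6 conventional actins of the mouse, Acta1, Acta2, Actb, Actc1, Actg1 and Actg2, and 3 genes whose proteins act at the ends or on the length of the thin filament, Tmod1, Lmod2 and Nebl. These 9 genes of the 23284 in the deposited expression table were taken by their symbols, with no threshold on their values, although earlier results of these data were known when the group was put together. RNA-seq had been made from heart ventricles at embryonic day 9.5 (E9.5) to learn how gene expression differs when Tbx5ua, a long noncoding RNA transcribed divergently from the Tbx5 promoter, is knocked down. The WT group held 3 tetraploid chimeric embryos produced with wild-type B6J ES cells. The KD group held 3 tetraploid chimeric embryos produced with B6J ES cells in which both Tbx5ua alleles carry polyadenylation signals inserted to end the transcript early, a genotype labelled Tbx5ua -/-. The labels give the strain of all 6 embryos as C57BL/6, of which B6J is a substrain (C57BL/6J), and name no treatment. In such embryos the tissue of the embryo proper comes from the ES cells, and the study made its KD embryos from 2 clonal ES lines, so each KD embryo stands for 1 of those clones. Which line gave which sequenced embryo is not given in the sources used here, and the difference between clones cannot be told apart from that between embryos.

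Each gene has a single pooled value per group in the table, in FPKM (fragments per gene, divided by the length of its transcripts and by library size). No value of a single embryo was at hand, so no SD or interval is given and no test was made here. The authors' own test results were not used. Every comparison below is a description of 2 pooled values. The depth of the libraries is unknown. The values of all genes summed to 859452 FPKM in WT and 877889 in KD. Genes typical of cardiac muscle were present in both groups, with a sum over 12 cardiomyocyte markers of 42949 FPKM in WT and 44552 in KD. Their levels differed widely, from Myl7 with 13643 FPKM in WT and 12907 in KD to Ryr2 with 4.42 and 4.12. The targeted transcript, Tbx5ua, was not analysed here and gives no check of the group labels.

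Actin monomers assemble into polar filaments, and in striated muscle these form the thin filaments on which myosin pulls. The barbed end of each thin filament is anchored at the Z-disc by capping protein, while the pointed end, which lies towards the middle of the sarcomere, is capped by tropomodulin and lengthened by leiomodin. The 6 actins differ mainly in their first few residues and are named for the adult tissue in which they dominate. Actc1 encodes the cardiac α-actin of the adult heart, Acta1 the skeletal α-actin, Acta2 and Actg2 the smooth muscle actins, and Actb and Actg1 the cytoplasmic actins found in nearly all cells. The embryonic heart is known to transcribe the skeletal and smooth muscle genes together with the cardiac one before their expression becomes restricted.

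Because the actins are near copies of each other, their coding sequences are shown first, since they determine which reads can be assigned to a single gene. The first 45 coding bases of each were read from the GENCODE M21 transcripts of build GRCm38, all on the minus strand, at chr2:114051987-114052031 (Actc1), chr8:123893653-123893697 (Acta1), chr19:34252509-34252553 (Acta2), chr6:83527397-83527441 (Actg2), chr5:142905642-142905686 (Actb) and chr11:120348047-120348091 (Actg1). These stretches lie in coding exons and encode the amino end at which the isoforms differ most. Capitals mark bases that differ from the base of Actc1 in an alignment of the whole coding sequences. That alignment has 3 gap bases for Actg2 and 6 for Actb and for Actg1, so the last bases printed for these genes are compared with Actc1 bases beyond its printed stretch, and the gaps themselves carry no capital.
Actc1: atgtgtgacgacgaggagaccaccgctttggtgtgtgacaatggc
Acta1: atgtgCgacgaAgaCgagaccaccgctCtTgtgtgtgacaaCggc
Acta2: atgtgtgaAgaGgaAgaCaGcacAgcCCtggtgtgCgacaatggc
Actg2: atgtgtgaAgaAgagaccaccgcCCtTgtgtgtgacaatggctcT
Actb: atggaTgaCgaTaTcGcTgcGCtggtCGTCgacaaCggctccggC
Actg1: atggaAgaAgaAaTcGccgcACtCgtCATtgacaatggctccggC

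Acta1 and Actg2 each had 6 bases in capitals, Acta2 had 9, Actg1 had 12 and Actb had 14, with gap bases not counted. Over the whole coding sequence, without the stop codon, Actc1, Acta1 and Acta2 have 1131 bases, Actg2 has 1128, and Actb and Actg1 have 1125. Identity between any 2 of the 6 ran from 81.5% for Acta2 with Actg1 to 88.6% for Actb with Actg1. Actc1 was 86.3% identical to Acta1, its closest relative in this comparison.

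Actb and Actg1 share a run of 62 identical bases, at coding bases 889 to 950 of Actb. It is not the longest run shared between 2 actins, and it is printed here, in transcript direction from GENCODE M21 on GRCm38, because a read that falls wholly within it cannot be assigned to 1 actin by its sequence. No base is in capitals, since no base differs.
Actb and Actg1: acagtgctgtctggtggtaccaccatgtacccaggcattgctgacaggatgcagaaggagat

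Shared stretches are a small part of each transcript. The length of the reads is not given in the sources used here, so 3 lengths were examined. Of all windows of 50 bases along the transcript, 2.57% of those of Actb were found unchanged in at least 1 other actin, as were 28 of 1397 for Acta1, 1.94% for Actg1 and 0.352% for Acta2, while Actc1 and Actg2 had none. With windows of 36 bases the shares were 5.78% for Actb, 4.96% for Actg1, 3.33% for Acta1, 1.05% for Acta2, 0.231% for Actg2 and 0.209% for Actc1. With windows of 75 bases the highest share was 0.219%, in Acta1. Among the 4 muscle actins, Actc1 and Actg2 shared 3 windows of 36 bases, and no other pair shared any. These shares count exact matches among the 6 genes. Processed pseudogenes of the cytoplasmic actins and alignments with mismatches were not examined, and the values of the actins that share windows, Acta1, Actb and Actg1 above all, are the less certain for it.

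**Figure D1:**
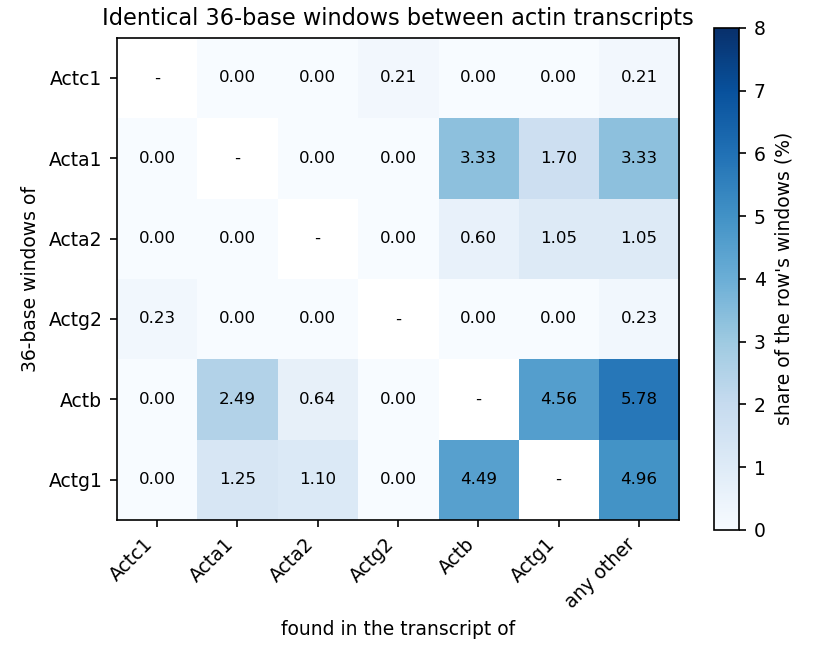
Share of the 36-base windows of each actin transcript (rows) that occur unchanged in another actin transcript (columns) or in any of the other 5 (last column), in percent, from GENCODE M21 transcripts. The largest shares lie between Actb and Actg1 (4.56% and 4.49%) and between Acta1 and Actb (3.33% and 2.49%), and the cells among Actc1, Acta1 and Acta2 are at 0.

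Among the 8 members with values, Acta2 had the highest level in both groups and Actg2 the lowest. Acta2, the vascular smooth muscle α-actin gene (chr19:34241091-34255336), stood at 3045 FPKM in WT and 2512 in KD. Acta1, the skeletal muscle α-actin gene (chr8:123891767-123894736), stood at 1760 FPKM in WT and 1345 in KD. Both muscle actins had the lower value in KD, Acta2 at 82.5% and Acta1 at 76.4% of the WT value. On the log2 scale used throughout, log2 of (KD + 1) over (WT + 1) in FPKM, the difference was -0.28 for Acta2 and -0.39 for Acta1.

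The cytoplasmic actin genes stood slightly higher in KD. Actb, the β-actin gene (chr5:142903116-142906724), had 1908 FPKM in WT and 1967 in KD, a log2 ratio of 0.04. Actg1, the cytoplasmic γ-actin gene (chr11:120345690-120348484), had 849 FPKM in WT and 901 in KD, a log2 ratio of 0.09. Actb held the same rank of 85 among all genes with values in both groups, whereas Acta1 stood at rank 96 in WT and 137 in KD, and Acta2 at 31 and 52.

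The remaining actins could not be compared. Actg2, the enteric smooth muscle actin gene (chr6:83512909-83536251), was near the lower limit of the table with 0.996 FPKM in WT and 0.686 in KD, and did not reach the minimum of 1 FPKM in either group that was set for a ratio. Without that minimum its log2 ratio was -0.24. Actc1, the cardiac α-actin gene (chr2:114047289-114052811), has the Cuffdiff status HIDATA, which marks a locus with too many fragments to process. The 0 printed for it in both groups is not a measured value, so the level of the cardiac isoform is not known from these data. Only 2 of the 23284 genes carried this status.

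**Figure D2:**
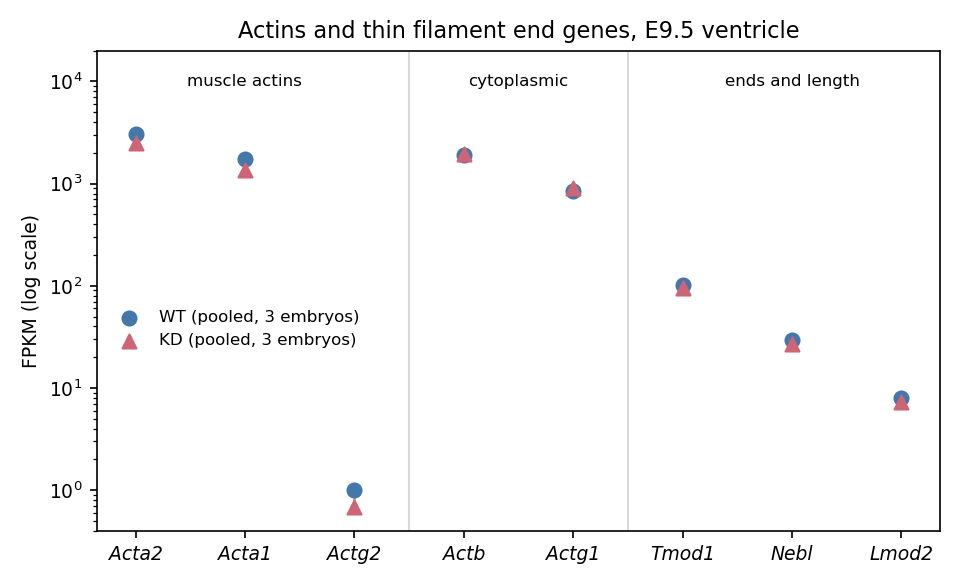
Pooled FPKM (vertical axis, log scale) of the 8 members with values in WT (circles) and KD (triangles), 3 embryos per group with no error bars because no values of single embryos were at hand. Acta2 and Acta1 lie lower in KD (2512 and 1345 FPKM) than in WT (3045 and 1760 FPKM), and the symbols of the other members past 1 FPKM nearly coincide.

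The members at the filament ends covered a wide range of levels, and each had the lower value in KD by a small amount. Tmod1, which encodes the tropomodulin that caps the pointed end in heart muscle (chr4:46039222-46138475, plus strand), had 102 FPKM in WT and 96.0 in KD, a log2 ratio of -0.09. Its locus overlaps that of Tstd2, which stood at 43.9 FPKM in WT and 47.5 in KD, and since the Smart-Seq2 library does not keep strand, reads in the overlap cannot be told apart. Lmod2, the leiomodin of heart muscle, which promotes elongation at the pointed end (chr6:24597771-24605414, plus strand), had 7.95 FPKM in WT and 7.23 in KD, a log2 ratio of -0.12. Nebl, which encodes nebulette, the short cardiac relative of nebulin that binds actin near the Z-disc (chr2:17346734-17731068, minus strand), had 29.5 FPKM in WT and 26.8 in KD, a log2 ratio of -0.14. GENCODE lists 13 transcripts of Nebl, and the gene value sums over whichever of them the authors' annotation held.

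Per length, the transcripts of the capping protein gene Tmod1 were 12.9 times as abundant as those of Lmod2 in WT and 13.3 times in KD. Acta2 was at 1.73 times the level of Acta1 in WT and 1.87 times in KD, and Actb at 2.25 and 2.18 times that of Actg1. The order of the 8 levels was Acta2, Actb, Acta1, Actg1, Tmod1, Nebl, Lmod2 and Actg2 in both groups. Without a spread between embryos it cannot be said which neighbours in this order differ.

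Of the 7 members that passed the minimum level, 5 were lower and 2 higher in KD, beside 49.1% lower among all 11606 genes that passed. None reached a 1.5-fold difference, a bound passed upward by 2.2% and downward by 1.46% of all genes. At a smaller bound, a log2 ratio of 0.32 in either direction, 1 member, Acta1, was lower and 0 were higher, beside 6.4% of all genes lower and 8.8% higher. The median log2 ratio of the 7 members was -0.12 and that of all genes 0.00426. With 7 genes these counts are read as a description only.

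Among all genes that passed the minimum level, the log2 ratio of Acta1 stood at percentile 4.08 from the lowest and that of Acta2 at 8.68. The difference in Acta1 was also read beside genes of its own level, since ratios of highly expressed genes are less scattered than those of low ones. Of the 321 genes with at least 500 FPKM in either group, 3.43% were lower past the bound of 0.32 in KD and 3.74% higher, and the median log2 ratio was 0.06. Acta1 was the 8th lowest of them and Acta2 the 13th. All 7 genes below Acta1 were genes of small RNAs, with names beginning in Snord or Mir, whose FPKM is divided by a very short length, and were named after their values were seen. The next lowest after Acta1 (-0.39) were Hsp90aa1 at -0.37, Hspd1 at -0.35, Rps27 at -0.33 and Hspa8 at -0.31, of which all but the ribosomal protein gene Rps27 encode chaperones, and each was lower than Acta2 (-0.28). Actb and Actg1 stood near the middle of this class, at positions 139 and 181 from the lowest. These positions depend on the bound of 500 FPKM, which was set after seeing the data. The smooth muscle marker Tagln, under that bound with 400 FPKM in WT and 263 in KD, had a log2 ratio of -0.60, lower than Acta1.

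**Figure D3:**
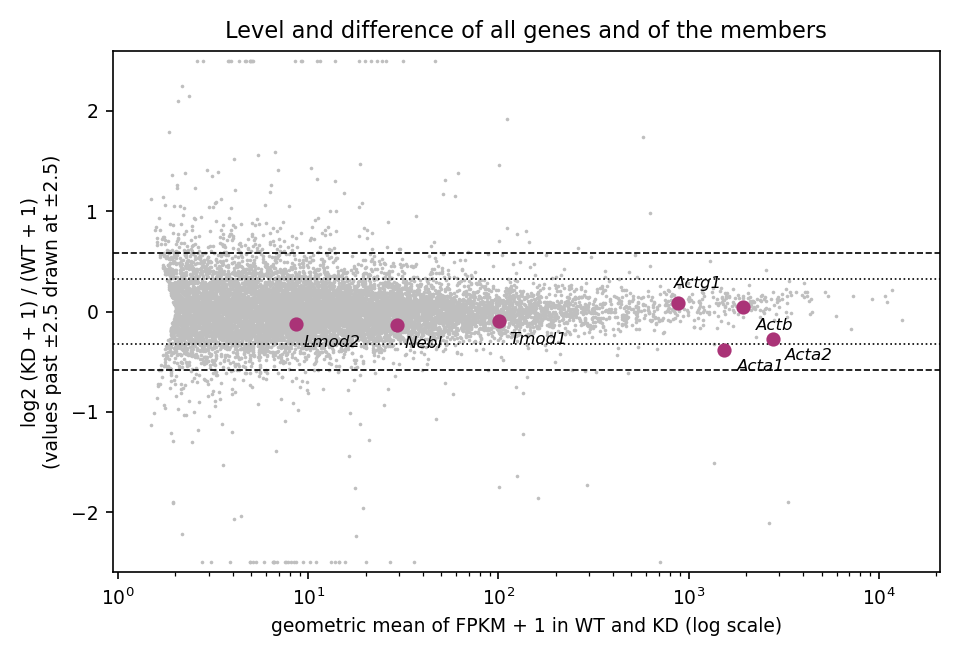
Log2 ratio of KD over WT (vertical axis, pseudocount of 1 FPKM) against the geometric mean of FPKM + 1 in the 2 groups (horizontal axis, log scale) for the 11606 genes past the filter (grey) and the 7 members (purple). Dotted lines mark a log2 ratio of 0.32 in either direction and dashed lines 1.5-fold; Acta1 lies below the dotted line at a level where few genes do, and the other members lie between the dotted lines.

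The proportions of the measured actins, which leave out Actc1, are given next as pooled values without a spread. The summed level of Acta1, Acta2 and Actg2 was 4806 FPKM in WT and 3857 in KD, while Actb and Actg1 together had 2756 FPKM in WT and 2868 in KD. Transcripts of these 3 muscle actins stood at 1.74 per cytoplasmic actin transcript in WT and 1.34 in KD. Within the sum of the 5 measured actins, the share of the same 3 genes was 63.5% in WT and 57.4% in KD. The share of Acta1 was 23.3% in WT and 20.0% in KD, that of Acta2 40.3% and 37.3%, that of Actb 25.2% and 29.2%, and that of Actg1 11.2% and 13.4%. All 5 together made up 0.880% of the FPKM of all genes in WT and 0.766% in KD. A share of all actin transcripts cannot be given.

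**Figure D4:**
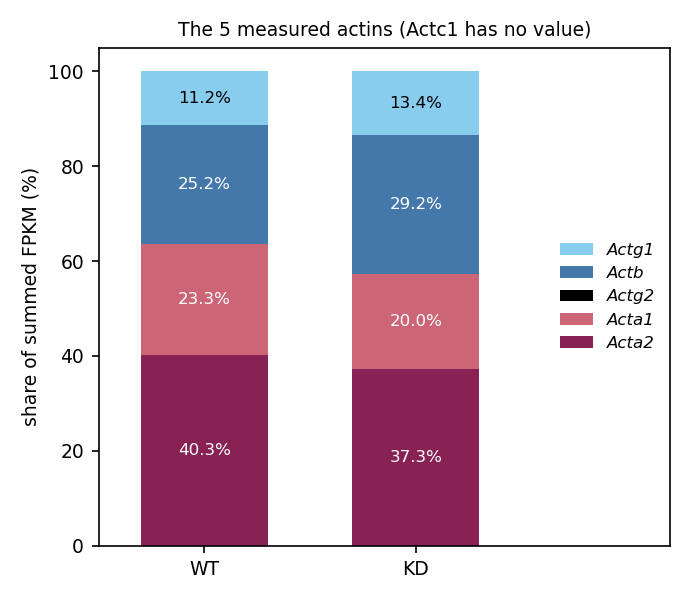
Share of each measured actin in the summed FPKM of the 5 (vertical axis, percent) in WT and KD, 1 pooled value per group, with Actc1 left out and Actg2 too low to be seen. The muscle actins Acta2 and Acta1, together with Actg2, take 63.5% of the bar in WT and 57.4% in KD.

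A ratio to another gene of the same group does not depend on how the libraries were scaled, but in bulk tissue it can shift with cell composition. Acta1 had 0.923 times the level of Actb in WT and 0.684 times in KD. Its level relative to Tnnt2, the cardiac troponin T gene, was 0.955 in WT and 0.744 in KD, and relative to Tnni1, the slow troponin I gene of the embryonic heart, 0.602 and 0.469. Acta2 had 1.60 times the level of Actb in WT and 1.28 times in KD. The lower Acta1 value in KD was thus present relative to Actb, Tnnt2 and Tnni1. These genes differed little between the groups, with log2 ratios of 0.04, -0.03 and -0.03. Ratios to them therefore repeat the Acta1 difference and are not separate support for it. The lower Acta1 value was not present relative to every muscle gene. The KD value was 0.764 of the WT value for Acta1, beside 0.657 for Tagln, 0.612 for Lmod1, 0.70 for Lmod3, 0.605 for Tnnc2 and 0.758 for Xirp1. In bulk tissue, fewer cells of a type and less RNA per cell cannot be told apart.

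Acta1 and Acta2 are transcribed in more than 1 muscle type, and markers of the other cell types were read beside them. Over the 12 cardiomyocyte markers the median log2 ratio was -0.03, with 5 higher and 7 lower, from -0.24 for Myh6 to 0.22 for Myl2. Smooth muscle markers were lower in 4 of the 5 that passed the minimum level, with a median of -0.38 that was -0.22 with a minimum of 5 FPKM, which leaves out Lmod1, and their sum over 7 was 1310 FPKM in WT and 1099 in KD. Tagln, which encodes the actin-binding protein transgelin, had 400 FPKM in WT and 263 in KD, and Cnn1, which encodes calponin, 201 and 154 FPKM. Des, the desmin gene and the most abundant of the list, had 677 FPKM in WT and 650 in KD, a log2 ratio of -0.06. Smtn had the higher value in KD, 27.7 beside 26.9 FPKM in WT, as did Mylk, 0.457 beside 0.284 FPKM. Both Tagln and Cnn1, like Acta2, are also transcribed in the early embryonic heart muscle, and their loci in the table overlap 2 and 14 other genes. Myh11, the smooth muscle myosin heavy chain gene and the defining marker of differentiated smooth muscle, was near 0 with 0.258 FPKM in WT and 0.0402 in KD.

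Markers of skeletal muscle were mostly at 0. Of 9 skeletal muscle markers, 7 were listed at 0 in both groups, among them the determination factors Myod1, Myog, Myf5 and Myf6. Ckm, the muscle creatine kinase gene, which the heart also transcribes, was the only one past the minimum, with 1.78 FPKM in WT and 2.63 in KD. Epicardial markers differed in the other direction from the muscle actins. Each of the 6 that passed had the higher value in KD (median log2 ratio 0.90), and the sum over 7 was 47.3 FPKM in WT and 96.8 in KD. The median was 0.04 for 7 endocardial, 0.11 for 5 erythroid, 0.31 for 6 atrial and 0.51 for 3 neural crest and mesenchymal markers. With a minimum of 5 FPKM the atrial median was -0.08, with a pseudocount of 0.1 FPKM it was 0.52 and with none 0.58, and without a minimum that of the neural crest and mesenchymal markers was 0.16. Of the macrophage markers none passed, the highest being at 0.601 FPKM. The part of cell composition in the values of the actins was not tested.

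The other genes of the pathway were read by role, from lists in which no gene was past 1.5-fold with the pseudocount of 1 FPKM. As a plain ratio without it, 6 of the genes that reached 1 FPKM in either group were past that bound. Higher in KD were Daam2 at 1.93, Actr5 at 1.78, Nrap at 1.72 and Tmod2 at 1.57, each KD over WT. Lower in KD were Tnnc2 at 1.65 and Lmod1 at 1.63, each WT over KD. The share of all genes past 1.5-fold as a plain ratio was not computed, so the count of 6 has no background and is a description only. Counts of lower and higher genes in each list stand beside 49.1% lower among all 11606 genes and are a description only. At the filament ends and along the filament length, 12 of 15 genes passed the minimum, 8 lower and 4 higher in KD, with a median of -0.11. Among them were the 3 members Tmod1, Lmod2 and Nebl. The other leiomodins had the lowest ratios. Lmod1, the smooth muscle leiomodin gene, had 4.23 FPKM in WT and 2.59 in KD, a log2 ratio of -0.54. Lmod3, the skeletal muscle leiomodin gene, had 19.6 FPKM in WT and 13.7 in KD, a log2 ratio of -0.49, so it exceeded Lmod2 by 2.46 times in WT and 1.89 times in KD. Xirp1, which encodes an actin-binding protein of the intercalated disc, was also lower past the bound of 0.32, at a log2 ratio of -0.37.

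Tmod1 was the main tropomodulin gene, at 7.21 times the level of Tmod3 in WT and 6.43 times in KD. Of the barbed end capping protein genes, Capzb had 345 FPKM in WT and 366 in KD, a log2 ratio of 0.08, Capza2 176 and 168 FPKM, a ratio of -0.06, and Capza1 108 and 98.4 FPKM, a ratio of -0.13 that is similar to those of Lmod2 and Nebl. Neb, the nebulin gene of skeletal muscle, was near 0 with 0.0477 FPKM in WT and 0.0375 in KD, far under the level of Nebl. Nrap, which encodes an actin-binding protein of early myofibrils, had the highest log2 ratio of the list at 0.47, with 1.15 FPKM in WT and 1.98 in KD, on a locus shared with 1 other gene.

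The regulators of the thin filament, the troponins and tropomyosins that make contraction depend on calcium, were split. Of 12 genes, 7 were higher and 5 lower, and the median log2 ratio was 0.02. The most abundant were Tnnc1, the cardiac troponin C gene, with 3330 FPKM in WT and 3215 in KD, and Tpm1, the α-tropomyosin gene, with 3257 FPKM in WT and 3258 in KD. The widest ratios were in genes of fast skeletal muscle, 0.52 for Tnni2 and -0.42 for Tnnc2, the latter at 1.75 FPKM in WT and 1.06 in KD. No gene of this list at the level of Acta1 was lower by as much.

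Among genes for proteins that bind monomers and turn filaments over, 14 of 19 had the higher value in KD, none past a log2 ratio of 0.32, and the median was 0.06, as it was in the class of at least 500 FPKM. Pfn1, which encodes profilin, had 2814 FPKM in WT and 3114 in KD, and Tmsb10, which encodes the monomer-sequestering thymosin β10, 3172 and 3629 FPKM. Dstn, which encodes the severing protein destrin, was the lowest of the list at a log2 ratio of -0.21, with 787 FPKM in WT and 680 in KD, and the phosphatase gene Ssh1 the highest at 0.28. Nucleation genes were split as well, with 10 higher and 8 lower of 18 that passed and a median of 0.02. Arpc2 and Arpc3, subunit genes of the Arp2/3 complex, had 350 and 249 FPKM in WT and 372 and 243 FPKM in KD. The ends of this list were Daam2 at 0.51, with 0.845 FPKM in WT and 1.63 in KD, and Cobll1 at -0.36, with 5.67 and 4.20 FPKM.

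Genes for the folding of actin stood lower in KD more often than not. The chaperonin CCT folds newly made actin and receives it from prefoldin, and 12 of the 14 genes of this list were lower, with a median of -0.11. All 8 CCT subunit genes were lower, by log2 ratios between -0.23 and -0.11, from levels of 230.0 to 527 FPKM in WT. The loci of the subunit genes Tcp1, Cct7 and Cct8, and of the prefoldin gene Pfdn4, are shared with other genes. The highest of them in WT, Cct5 and Cct6a, had 527 and 465 FPKM in WT and 482 and 407 FPKM in KD. Cct3 was the lowest of the subunits at -0.23, with 391 FPKM in WT and 334 in KD, and the prefoldin gene Vbp1 the lowest of the list at -0.24, with 137 and 116 FPKM. Chaperonin also folds tubulin and other proteins, so this list is not particular to actin.

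Of the other actins and actin-related proteins, 7 of 15 in the table were listed at 0 in both groups, among them Actbl2. Among the 8 that passed, 6 were lower and 2 higher in KD, with a median of -0.16. Actl6a, a subunit gene of chromatin remodelling complexes, had 112 FPKM in WT and 98.5 in KD, and Actr1b, of the dynactin filament, 76.5 and 65.6 FPKM. Actr6 was the lowest at -0.28, with 19.2 FPKM in WT and 15.6 in KD, and Actr5, on a locus shared with 1 other gene, the highest at 0.55, with 1.45 and 2.58 FPKM.

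**Figure D5:**
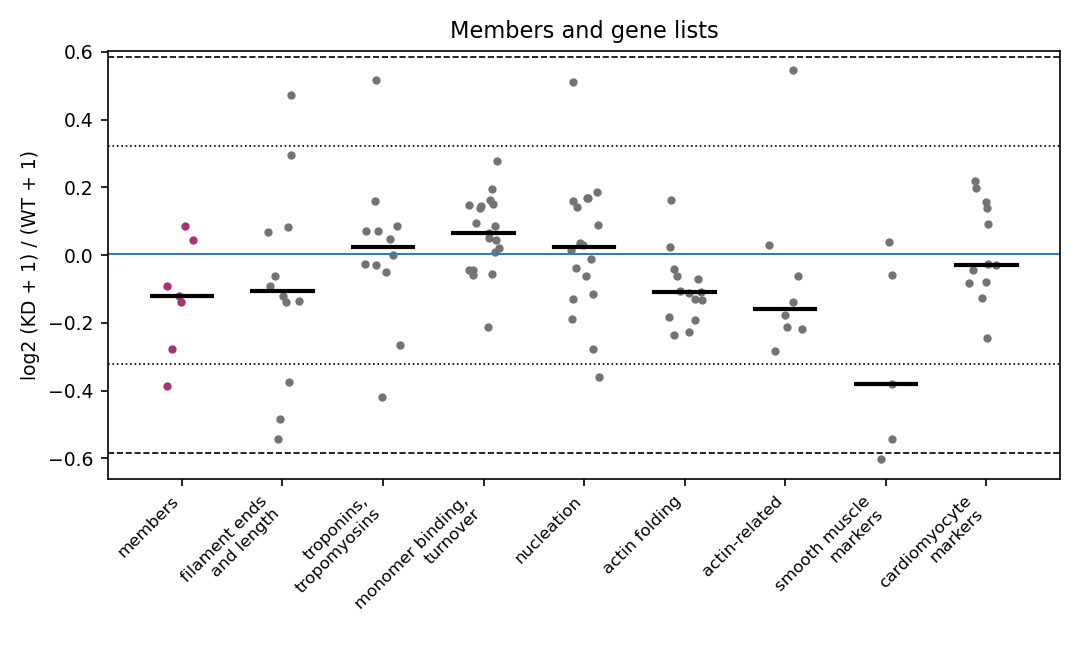
Log2 ratio of KD over WT (vertical axis) of the 7 members (purple) and of the genes past the filter in 6 pathway lists and 2 marker lists (grey), with the median of each as a black bar. The blue line marks the median of all genes (0.00426), dotted lines a log2 ratio of 0.32 in either direction and dashed lines 1.5-fold. The medians of the members (-0.12), filament ends (-0.11), actin folding (-0.11) and other actins and actin-related proteins (-0.16) lie below the blue line. That of the smooth muscle markers (-0.38) lies lowest.

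Genes with the pair of group values nearest to that of a member were found over all genes, as the distance between the 2 log2(FPKM + 1) values. With only 2 pooled values this describes level more than pattern. Nearest to Acta1 were Hspe1, a mitochondrial chaperonin gene, with 1673 FPKM in WT and 1541 in KD, and Crip2, with 1523 and 1431 FPKM. Neither was as low in KD relative to WT as Acta1. Nearest to Actb were Rpl9, a ribosomal protein gene, with 1906 and 1974 FPKM, and the cofilin gene Cfl1, with 1916 and 1946 FPKM. Nearest to Tmod1 were Tmbim4, with 102 and 96.6 FPKM, and Rsl24d1, also with 102 FPKM in WT and 96.7 in KD.

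The muscle actin promoters are known for CArG boxes, the element bound by serum response factor, which consists of CC, a core of 6 bases that are each A or T, and GG. The boxes near the start sites are shown here because they occur in actin genes that stood lower and in Actg1, which stood slightly higher in KD. Promoter windows of 250 bases before to 50 after the start were taken from RefSeq on GRCm38.p6, where 7 of the 9 members had an entry and Actb and Actg2 were not examined. Among all 32851 windows, a box with a core all A or T was found in 1.63%, and one with at most 1 other core base in 9.98%. Boxes of either kind were counted on both strands, since the element reads alike on each. Capitals mark the boxes, and all stretches are on the minus strand, upstream of the start site, at chr8:123894827-123894992 (Acta1), chr19:34255438-34255467 and chr19:34255388-34255417 (Acta2), chr2:114052901-114053062 (Actc1) and chr11:120348564-120348597 (Actg1). The Acta2 stretches fall in the first exon of its GENCODE transcript, which begins farther upstream than the RefSeq one. The Actc1 stretch falls in an intron of the longer-reaching of its 2 GENCODE transcripts.
Acta1: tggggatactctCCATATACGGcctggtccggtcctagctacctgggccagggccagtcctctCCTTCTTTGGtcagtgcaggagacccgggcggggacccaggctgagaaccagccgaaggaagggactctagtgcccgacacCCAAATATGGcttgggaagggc
Acta2, first box: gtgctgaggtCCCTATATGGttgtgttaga
Acta2, second box: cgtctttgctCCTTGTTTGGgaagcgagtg
Actc1: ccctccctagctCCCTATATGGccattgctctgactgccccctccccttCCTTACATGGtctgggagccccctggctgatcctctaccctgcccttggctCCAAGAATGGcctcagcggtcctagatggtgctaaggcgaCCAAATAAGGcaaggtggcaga
Actg1: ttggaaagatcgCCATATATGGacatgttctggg

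Actc1 had 4 boxes, Acta1 had 3, Acta2 had 2 and Actg1 had 1. A core made only of A and T was present once in each of the actins Actc1, Acta1 and Actg1, at 47, 73 and 90 bases before the start site, and in none of the boxes of Acta2. Acta1 and Acta2, with lower values in KD, and Actg1, with a slightly higher one, thus all held a box of one kind or the other. Of the genes at the filament ends, Nebl had 1 box in 1 of its 4 windows, with a core made only of A and T and beginning 162 bases before the start site, and Lmod2 and Tmod1 had none. A second motif, CATTCC on either strand, which is the element of TEAD factors, was found in 14.7% of all windows. It was present in Acta1, Acta2, Tmod1 and 1 window of Nebl, and no copy overlapped a box in these windows. A match of letters is a description of the window and not evidence that a factor binds there.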

How the data were processed

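Libraries were made from 10 ng of total RNA by Smart-Seq2, with 12 cycles of PCR before and 9 after tagmentation, and read single-end. The submitters' processing notes name TopHat, Bowtie2, Cuffdiff and the build mm10, without versions, and read length and annotation are not given in the sources used here. The authors deposited 1 Cuffdiff table with a pooled FPKM value per gene for each group, the KD group under the name KO. The authors' columns of fold changes, test scores, p-values and q-values were not used. No column of per-sample values was left unused (0). Table starts were given with 1 added.

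Log2 ratios were computed as log2 of (KD + 1) over (WT + 1) for genes that reached 1 FPKM in WT or in KD. On this scale the change of low genes is understated. "Past 1.5-fold" replaced a test, since no values of single embryos were at hand and the authors' test columns were not used. Members and lists were chosen with earlier results of these data known. Genes named were every member, the 2 highest in WT and the 2 with the widest ratio of each pathway list, and the 2 nearest in level to Acta1, Actb and Tmod1. Others (marker genes, Neb, Tmod2, Tmod3, Nrap, Xirp1, Capza1, Actbl2, Tstd2 and the genes set beside Acta1 in its level class) were picked with their values in view. Other settings tried were other folds, pseudocounts, minimum levels and scalings. Leaving out genes on a shared locus and a class of at least 500 FPKM were added after seeing the data. Scripts were tested on simulated data. Actin transcripts came from GENCODE M21 (GRCm38) and promoters from RefSeq (GRCm38.p6). Python 3.11.15, NumPy 2.4.6, pandas 2.3.3, Biopython 1.88 and Matplotlib 3.10.9 were used.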

Additional observations from a re-analysis of the deposited data

How the results depend on the processing

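No member passed 1.5-fold in either direction under any alternative that kept that bound, nor 2-fold. With 0.32 on the log2 scale as the bound, 1 member, Acta1, was lower. The median log2 ratio of the members, -0.12 as reported, was -0.14 with a pseudocount of 0.1 FPKM, -0.14 with none, -0.13 without a minimum level, -0.15 with values scaled to the same sum, -0.13 less the median of all genes, -0.0935 less the cardiomyocyte median and -0.13 without Tmod1, whose locus is shared. No member past the minimum level changed sign in any of 8 settings, Acta1 running from -0.42 to -0.36, Acta2 from -0.31 to -0.25, Actb from 0.01 to 0.07 and Actg1 from 0.06 to 0.11. Scaling to the same sum turned the medians of the thin filament regulators to -0.00684 and of the nucleation genes to -0.00760, and a minimum of 5 FPKM, which left fewer genes, turned the atrial median to -0.0800. Scaling to the same sum lowers the ratios of abundant genes by about 0.03 and those of low genes by less, which accounts for the first 2. With a minimum of 5 FPKM the smooth muscle median was -0.22, and without a minimum it was -0.27, that of the filament ends -0.0631, of the other actins 0 and of the neural crest markers 0.16. No paired analysis was possible because only pooled values were at hand, and for the same reason no embryo could be left out. Actc1 has no measured value, and depth is unknown for all members.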
